A study of Mus musculus with 10 samples.

Results

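Transcripts of the cell division cycle were examined in mast cells sorted from the mouse lower airway. The set held 45 genes of the 22815 in the count table, chosen by their known function: 15 genes of DNA replication, which act in S phase, and 30 genes of mitosis, which act in G2 and M phase. The choice was made with earlier results of these data known. Each gene was placed in 1 of 9 roles. The cells came from wild type C57BL/6 mice of 5 to 7 weeks and were separated by flow cytometry into populations labelled B7hi and B7low. Saline mice received 20 µL of saline by the nose and gave 2 B7hi and 2 B7low libraries. HDM mice received 3 µg of an extract of house dust mite, a common allergen source, in the same volume, and gave 3 libraries of each population. Both were dosed 2 times a week for 3 weeks. The series title speaks of inducible and constitutive mast cells, and B7 stands for integrin β7 in the literature on these cells, where the inducible population carries much of it. No transgene or deletion is named for any group. The labels do not state whether libraries of a group came from separate mice or pools, so p-values reflect only how these libraries scatter, and part of that scatter may be technical.

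A dividing cell first loads MCM helicase rings onto replication origins, then makes deoxynucleotides and copies its chromosomes. E2F transcription factors switch on most genes of that step. Genes of cyclin B, the mitotic kinases, the kinetochore and the spindle often carry CHR elements and CCAAT boxes. Through the CHR the DREAM complex represses them in quiescence and G1, and its MuvB core activates them later with B-Myb and FOXM1, while NF-Y binds the CCAAT boxes. Mature mast cells divide rarely, while the mast cell progenitors that enter inflamed lung keep the ability to proliferate.

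The promoter windows show how the replication and mitosis genes differ in sequence. RefSeq windows on GRCm38.p6, running from 250 bases before to 50 bases after each annotated start, were at hand for 38 of the 45 genes, with 15 windows of 13 replication genes and 26 windows of 25 mitosis genes. The motifs were searched on both strands: the CHR (TTTGAA or TTCGAA), the CCAAT box (CCAAT) and an E2F site (TTTCCCGC, TTTGGCGC, TTTCGCGC or TTTGCCGC). Matches may share letters with one another, as do E2F matches on opposite strands in Mcm6 and Mcm5, and TTCGAA reads the same on both strands. A CHR was present in 76.9% of mitosis windows, 13.3% of replication windows and 14.3% of the 10282 windows of all genes tested. The E2F site had the opposite pattern, at 3.85%, 40.0% and 3.99%. CCAAT boxes stood in 84.6% of mitosis and 73.3% of replication windows, against 37.9% of windows of genes tested. Over all 32851 windows of the table the shares were 19.2% for the CHR, 37.4% for the CCAAT box and 2.26% for the E2F site. A match is a run of letters and not a shown binding site.

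**Figure D1:**
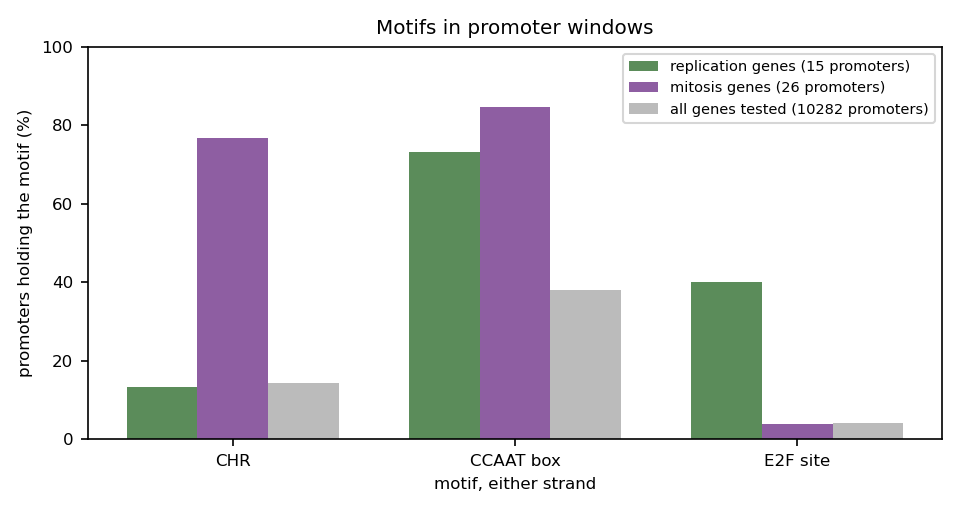
Share of promoter windows (vertical axis, percent) that hold a CHR, a CCAAT box or an E2F site on either strand, for replication genes (green), mitosis genes (purple) and all genes tested (grey). CHR matches stood in 76.9% of mitosis windows and E2F matches in 40.0% of replication windows.

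The promoters of 6 genes are printed here, each as the 200 bases before the RefSeq start on the gene's own strand, 5′ to 3′, because these genes carry the results that follow or show a motif arrangement clearly. Capitals mark CHR, CCAAT box and E2F site letters on either strand. Mcm6 (chr1:128359706-128359905, minus strand) and Mcm5 (chr8:75109309-75109508, plus strand) are replication genes with E2F and CCAAT letters. Top2a (chr11:99024190-99024389, minus strand), Kif11 (chr19:37376182-37376381, plus strand) and Ccnb2 (chr9:70421555-70421754, minus strand) are mitosis genes with CHR and CCAAT letters. Tubb5 (chr17:35838302-35838501, minus strand) holds CCAAT letters alone.
Mcm6: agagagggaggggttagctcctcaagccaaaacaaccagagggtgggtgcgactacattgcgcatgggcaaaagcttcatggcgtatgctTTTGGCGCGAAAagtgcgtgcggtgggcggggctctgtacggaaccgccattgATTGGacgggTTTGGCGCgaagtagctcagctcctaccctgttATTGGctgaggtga
Mcm5: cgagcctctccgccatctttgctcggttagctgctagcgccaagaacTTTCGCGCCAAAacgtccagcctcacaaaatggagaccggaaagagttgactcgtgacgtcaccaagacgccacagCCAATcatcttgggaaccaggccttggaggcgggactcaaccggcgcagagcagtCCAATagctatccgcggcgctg
Top2a: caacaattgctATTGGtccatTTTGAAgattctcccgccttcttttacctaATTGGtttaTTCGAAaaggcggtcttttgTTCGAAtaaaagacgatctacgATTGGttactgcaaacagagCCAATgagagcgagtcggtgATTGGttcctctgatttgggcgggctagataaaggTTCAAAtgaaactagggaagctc
Kif11: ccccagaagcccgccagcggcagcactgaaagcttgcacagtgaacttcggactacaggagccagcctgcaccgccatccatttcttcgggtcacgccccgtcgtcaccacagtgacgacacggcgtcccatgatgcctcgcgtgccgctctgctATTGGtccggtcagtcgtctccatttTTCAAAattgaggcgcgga
Ccnb2: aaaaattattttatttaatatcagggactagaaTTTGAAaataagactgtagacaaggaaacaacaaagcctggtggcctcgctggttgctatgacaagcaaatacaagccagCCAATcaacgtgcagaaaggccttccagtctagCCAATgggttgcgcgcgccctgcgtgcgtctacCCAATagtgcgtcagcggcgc
Tubb5: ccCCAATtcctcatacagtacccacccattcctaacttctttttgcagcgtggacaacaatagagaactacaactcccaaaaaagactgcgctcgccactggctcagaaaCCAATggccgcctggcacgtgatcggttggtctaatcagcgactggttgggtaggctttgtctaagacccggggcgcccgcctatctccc

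Total counts ran from 525983 (B7hi HDM 2) to 1725818 (B7hi saline 2). Levels are in CPM, the usual count relative to library size, here with library sizes scaled by the trimmed mean of M values (TMM). Before that scaling, a count of 0 allows up to 5.70 CPM in the shallowest library and 1.74 CPM in the deepest. These bounds are 3 counts over the total count, so they differ somewhat on the scale of the levels. The mast cell markers Cpa3, Kit, Fcer1a, Ms4a2 and Hdc were detected in every library, with Kit between 2693 and 5642 CPM. Of 9 mast cell markers 6 were called lower in B7hi than in B7low with saline (edgeR quasi-likelihood test, adjusted p under 0.05) and 0 higher. These 6 were Cma1, Cpa3, Fcer1a, Hdc, Mcpt4 and Tpsb2, beside 3.64% of genes tested called lower and 2.91% higher. All 9 had a negative fitted change, and their sum was 13690 to 16436 CPM against 60409 to 105906 CPM. With HDM 4 were called lower, beside 2.15% of genes tested, and all 9 were again negative. The sums were 18891 to 31012 CPM against 53761 to 76836 CPM. Of 4 basophil markers Mcpt8 and Ifitm1 were called higher in B7hi on average over challenges and Prss34 and Cd200r3 lower. Of genes tested, 5.80% were called higher and 6.08% lower on that average. Mcpt8 was at 837 and 691 CPM in B7hi and 57.7 and 189 CPM in B7low with saline, and at 821, 1288 and 1552 against 82.7, 368 and 383 CPM with HDM. The part of these marker differences in the cell cycle comparisons was not tested. Of the eosinophil genes Prg2 and Epx were at 0 in all 10 libraries and Ccr3 was at 3.13 to 31.8 CPM. The neutrophil gene S100a8 was at 0 in all 10 libraries, and 7 macrophage and monocyte genes summed to at most 36.6 CPM. The endothelial gene Pecam1 was at 59.4 to 171 CPM, and Cldn5 at 165 CPM in B7low HDM 1 and at most 18.9 CPM elsewhere. Of 3 epithelial genes tested Cdh1 was called higher in B7hi with saline (177 and 124 against 10.5 and 18.4 CPM) and none with HDM. Sftpc was at 39.8 CPM in B7low HDM 3 and at most 1.96 CPM elsewhere. The part of these genes' cells in the cell cycle levels was not tested. In bulk RNA, more dividing cells and more of these transcripts per dividing cell cannot be told apart.

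The summed level of the 45 genes varied widely within 3 of the 4 groups. In B7hi with saline it was 2127 and 3715 CPM, in B7low with saline 1140 and 1247 CPM, in B7hi with HDM 1838, 1943 and 4563 CPM, and in B7low with HDM 970.5, 2381 and 1675 CPM, in the order of replicate numbers. The highest library was replicate 2 in B7hi with saline, replicate 3 in B7hi with HDM and replicate 2 in B7low with HDM. The 2 B7low saline libraries were the closest pair. Group means were 2921 ± 1123 and 1194 ± 76.0 CPM for B7hi and B7low with saline (SD, n = 2 each), and 2782 ± 1544 and 1675 ± 705 CPM with HDM (SD, n = 3 each).

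**Figure D2:**
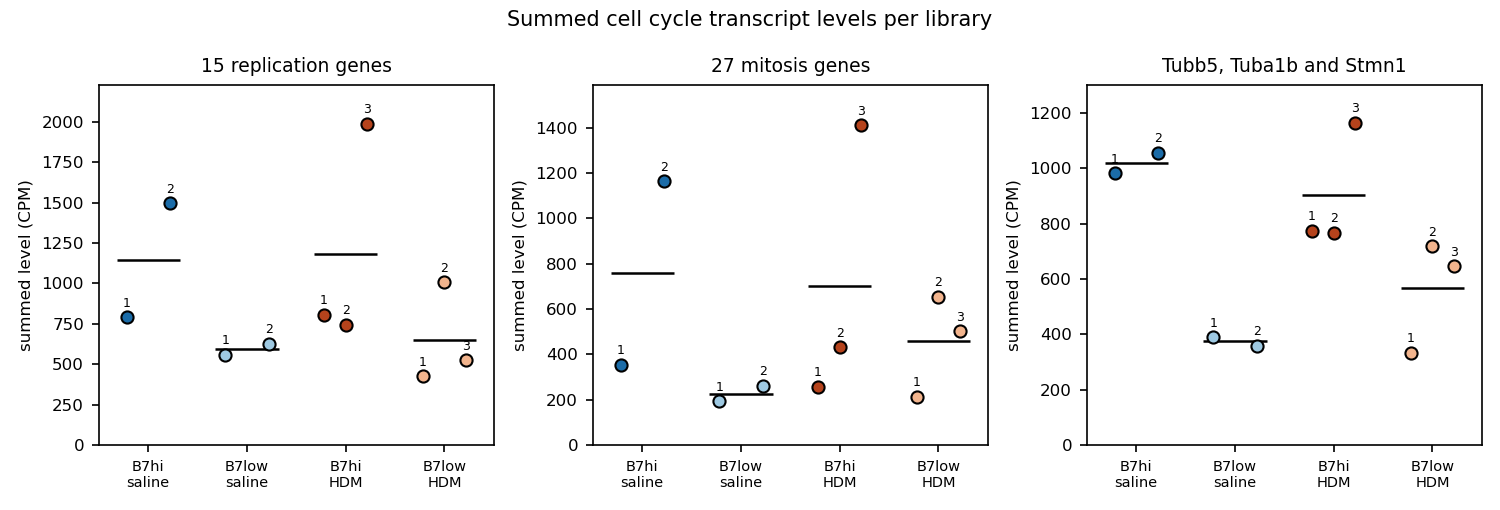
Summed level in CPM (vertical axis) of the 15 replication genes, of 27 mitosis genes and of Tubb5, Tuba1b and Stmn1 in each library, with the replicate number beside each point and the group mean as a line. B7hi saline 2 and B7hi HDM 3 stand highest in all 3 panels, and the B7low saline libraries lie close together.

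These high libraries stood above their partners across nearly the whole set. B7hi saline 2 exceeded B7hi saline 1 for 45 of 45 genes. B7hi HDM 3 exceeded B7hi HDM 1 for 44 and B7hi HDM 2 for 43. In B7low with HDM, replicate 2 exceeded replicate 1 for 44 and replicate 3 for 36, whereas in B7low with saline replicate 2 exceeded replicate 1 for 26. The median deviation of the 45 genes from their group means was 0.68 in B7hi saline 2, 1.16 in B7hi HDM 3 and 0.86 in B7low HDM 2 on the log2 scale. B7hi HDM 3 gave the highest level of 31 genes and B7hi saline 2 that of 9.

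Single mitosis genes had a wider median spread between replicates than single replication genes, while their sums did so only in part. Without the tubulins and stathmin, whose proteins also serve the interphase cytoskeleton, the summed level of 27 mitosis genes was 3.29-fold higher in B7hi saline 2 than in B7hi saline 1, against 1.89-fold for the replication genes. For B7hi HDM 3 over B7hi HDM 1 the ratios were 5.48 and 2.47, and for B7low HDM 2 over B7low HDM 1 they were 3.07 and 2.37. The order was the opposite for B7low HDM 2 over B7low HDM 3, at 1.30 and 1.91. With the tubulins and stathmin kept in, the highest B7hi library exceeded the lowest by 1.66-fold for mitosis and 1.89-fold for replication genes among saline mice, and by 2.49-fold and 2.67-fold among HDM mice. Among B7low libraries the same ratios were 1.07 and 1.12 for saline mice, and 2.51 and 2.37 for HDM mice. The median SD of log2 CPM within groups was 1.21 for the 30 mitosis genes, 0.83 for the 15 replication genes and 0.52 for all 10533 genes tested. Rrm2 (2.05), Bub1b (1.96), Uhrf1 (1.95), Kif20a (1.84) and Ccna2 (1.74) had the widest spread. Pcna (0.31), Tubb5 (0.39), Kif23 (0.44) and Mcm3 (0.52) had the narrowest. The genes named as widest averaged 5.87 to 40.8 CPM over all libraries, and those named as narrowest 70.8 to 636 CPM. Counting noise widens the SD of log2 levels at low counts, and its part in these differences was not tested. Genes with a CHR in their window had a median SD of 1.15 and those without one 1.10.

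**Figure D3:**
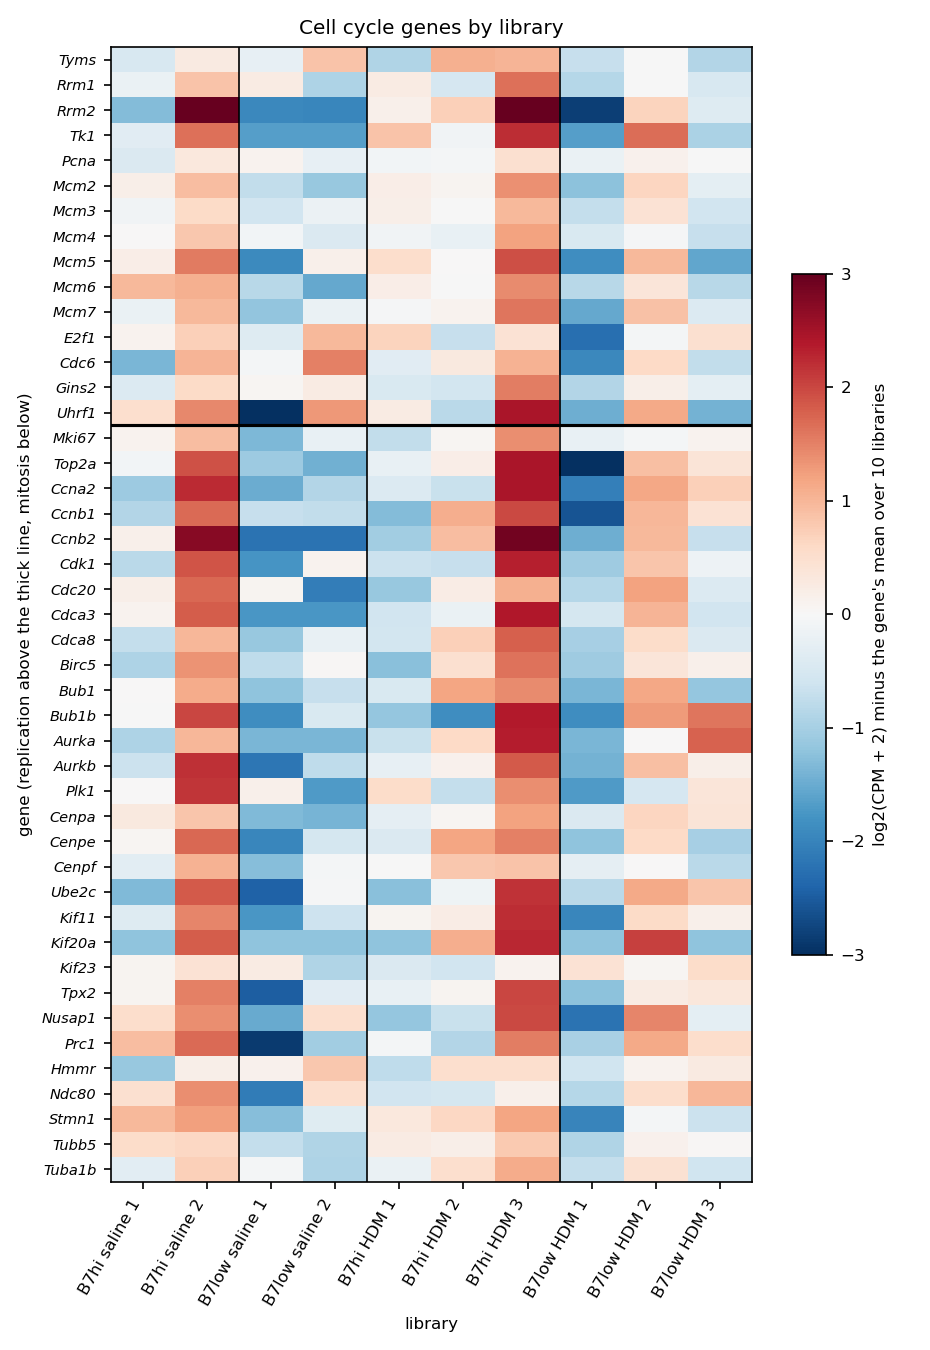
Level of each of the 45 genes (rows) in each library (columns), as log2(CPM + 2) minus the gene's mean over the 10 libraries, with replication genes above the thick line. The columns of B7hi saline 2 and B7hi HDM 3 are red, meaning above the mean, in nearly every row.

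Markers of other cells differed along with these libraries. Cd3g, a chain of the T cell receptor complex, was at 37.1 CPM in B7hi saline 2 and 29.5 CPM in B7hi HDM 3, and at most 3.91 CPM in the other 8 libraries. The lymphocyte kinase Lck was at 86.1 and 58.2 CPM there and at most 9.79 CPM elsewhere, and Igj, the joining chain of antibody-secreting cells, at 216 and 65.8 CPM and at most 5.25 CPM. The other plasma cell genes did not follow: Xbp1 was at 109 and 127 CPM there and highest in B7low HDM 2 (194 CPM), and Sdc1 was at most 6.25 CPM. Of the other T and NK cell genes, Cd3e (14.6 and 8.22 CPM) and Cd3d (16.2 and 8.90 CPM) were also highest in B7hi saline 2 and B7hi HDM 3. Nkg7, Cd4 and Cd8a did not follow. Nkg7 was highest in B7hi saline 1 (521 CPM) and Cd4 in B7low HDM 1 (13.6 CPM). Cd8a was at 21.4 CPM in B7hi saline 2, 30.8 CPM in B7hi HDM 3 and 25.1 CPM in B7low saline 2. Nkg7 gave most counts of the 7 genes, while Cd3e was at 0 in 5 libraries and Cd3g at 0 in 6. The sum of the 7 ranged from 525 to 626 CPM in B7hi and 47.2 to 154 CPM in B7low with saline. With HDM it ranged from 148 to 490 and 52.9 to 228 CPM. B cell markers were most abundant in B7low with HDM, at 591, 387 and 77.1 CPM over 6 genes. The summed cell cycle levels of these libraries were 970.5, 2381 and 1675 CPM. Elsewhere the B cell markers summed to 3.75 to 66.8 CPM. The part of these cells in the cell cycle levels was not tested.

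Some genes were not seen at all in the shallower B7low libraries. B7low saline 1 had no count of 13 of the 45 genes, and B7low saline 2 and B7low HDM 1 had none of 7. Thinned in expectation to the lowest depth, 31.1 and 37.7 of the genes had at least 1 count in the B7low saline libraries and 34.9 in B7low HDM 1, against 41.4 or more in the other 7. No count in either B7low saline library was found for 5 genes (Tk1, Ccnb2, Cdca3, Aurka and Kif20a).

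The first comparison set B7hi against B7low with saline. Tubb5, Mcm6 and Stmn1 were higher in B7hi, and 0 of the 45 genes were lower (edgeR quasi-likelihood test, adjusted p under 0.05). That is 3 of 45, beside 6.54% of all 10533 genes tested called in either direction, 2.91% called higher and 3.64% called lower. Fitted log2 fold changes were positive for 41 genes, with a median of 1.83 beside 0.03 for all genes tested, or 1.64 with the 5 genes absent from B7low set at the bound that 3 counts in that group allow. The median was 2.18 for mitosis and 0.74 for replication genes, and 12 genes had an unadjusted p under 0.05. The levels of the groups did not overlap for 25 genes, all higher in B7hi, beside 28.5% of genes tested higher and 23.4% lower. For some, such as Tk1 (3.02 and 17.8 CPM in B7hi) and Aurka (0.756 and 8.35 CPM), neither B7low library had a count. That allows up to 4.60 and 4.69 CPM before the TMM scaling. The scaling factors of these libraries (0.882 and 0.952) raise both bounds on the scale of the levels. Without any 1 of the 4 saline libraries 0 genes passed, and without B7hi saline 2 the median was 0.77, with 0.87 for mitosis and 0.25 for replication genes.

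After HDM, 0 of the 45 genes passed the edgeR test between B7hi and B7low, beside 2.84% of genes tested in either direction, 0.693% higher and 2.15% lower. Stmn1 alone passed with DESeq2 and with limma-voom. The log2 fold change was above 0 for 42 genes and its median was 0.83 (0.79 for mitosis and 1.02 for replication genes) beside 0.03 for all genes tested, and 6 had an unadjusted p under 0.05. Only Stmn1 and Tubb5 had levels that did not overlap, both higher in B7hi, beside 9.76% of genes tested higher and 10.7% lower. Leaving out B7hi HDM 3 turned the median to −0.04, with 21 genes positive. It was 0.51 without B7low HDM 1 and 1.45 without B7low HDM 2, where Stmn1 passed.

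**Figure D4:**
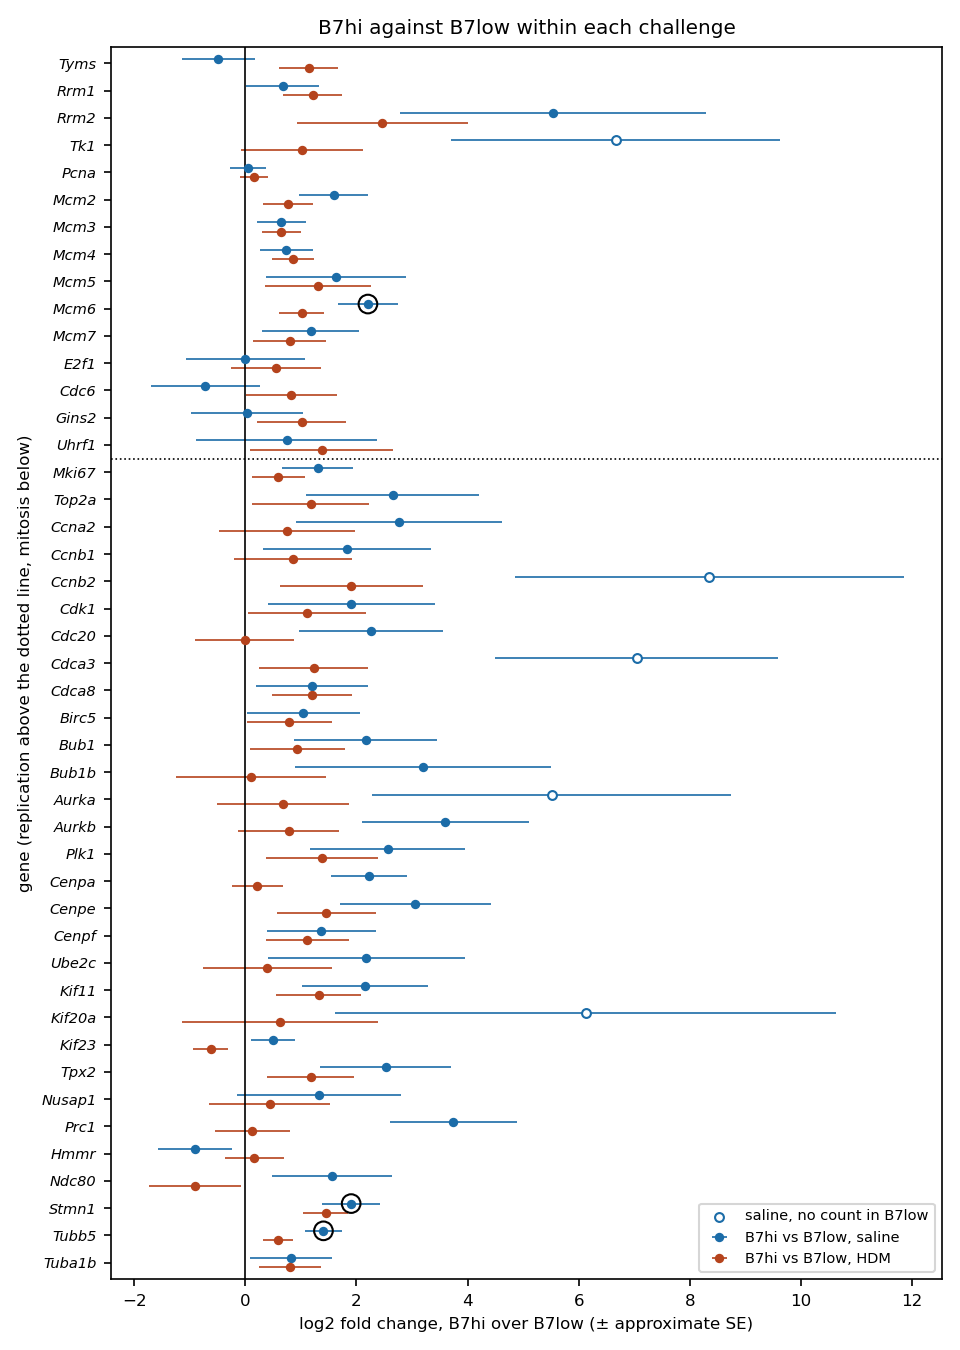
Fitted log2 fold change of B7hi over B7low (horizontal axis) with its approximate SE for each gene (vertical axis), with saline (blue) and HDM (red). Open points had no count in B7low with saline, so that their position depends on the fit's prior count, and circled points passed the test: Mcm6, Stmn1 and Tubb5 with saline.

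Averaged over both challenges, the same 3 genes passed, all higher in B7hi, beside 11.9% of genes tested in either direction, 5.80% higher and 6.08% lower. Of the 45 genes 43 were positive, with a median of 1.24 beside 0.03 for all genes tested, and 19 had an unadjusted p under 0.05. The count was 8 without B7hi HDM 1 and 10 without B7low HDM 2, while Mcm6 missed the threshold without B7low saline 2 (1.46, adjusted p = 0.060). The median was 0.69 without B7hi saline 2 and 0.81 without B7hi HDM 3. The roles are described below in the order in which they act, and fold changes quoted for a role are this average unless a challenge is named.

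Mcm6 was the replication gene that passed. It encodes a subunit of the MCM2-7 helicase ring that licenses origins and unwinds DNA, and lies on chromosome 1 at 128331590 to 128359664 (minus strand, GENCODE M21 on GRCm38). Its level was 218 and 234 CPM in B7hi with saline and 61.2 and 36.8 CPM in B7low with saline. With HDM it was 126, 110 and 299 CPM in B7hi and 61.0, 142 and 61.3 CPM in B7low. The saline groups were far apart, whereas with HDM B7low replicate 2 lay above 2 of the 3 B7hi libraries. The log2 fold change was 2.21 ± 0.54 with saline (SE, adjusted p = 0.029), 1.02 ± 0.41 with HDM (0.27) and 1.61 ± 0.34 on average (0.0073).

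The other helicase and licensing genes were positive on average and did not pass. Mcm2 was at 61.2 and 103 CPM in B7hi and 31.5 and 23.4 CPM in B7low with saline, and at 61.9, 56.8 and 142 against 21.7, 85.9 and 43.6 CPM with HDM. Its average log2 fold change was 1.18 ± 0.38 (adjusted p = 0.060), and it passed in 7 of 20 alternative analyses. Among these were the ones without B7hi HDM 1 or B7low HDM 2, with DESeq2, with library size alone and with no count filter. Mcm3, Mcm4, Mcm5 and Mcm7 ranged from 0.65 to 1.47 on average. All 6 MCM genes had saline levels in B7hi above both B7low libraries, beside 28.5% of all genes tested. Between the lowest B7hi and highest B7low library the margin was narrow for Mcm7 (43.8 against 43.5 CPM) and Mcm5 (52.1 against 50.2 CPM). It was also narrow for Mcm3 (98.2 against 93.6 CPM) and Mcm4 (74.1 against 68.2 CPM). Cdc6, which loads the ring (0.06), and Gins2, a part of the active helicase (0.53), overlapped between the groups.

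Nucleotide supply held the gene with the widest spread within groups. Rrm2, the cell cycle regulated subunit of ribonucleotide reductase, was at 3.78 and 162 CPM in B7hi with saline and 1.75 and 1.67 CPM in B7low. With HDM it was at 13.8, 21.5 and 142 CPM in B7hi and 0, 20.8 and 8.85 CPM in B7low. B7hi saline 2 and B7hi HDM 3 stood far above every other library. With 315 counts against 2 in the saline groups, the ratio of pooled levels was 56.9 (exact 95% counting interval 15.6 to 472), while the test across libraries gave an adjusted p of 0.31.

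Thymidine kinase Tk1, which salvages thymidine, was at 3.02 and 17.8 CPM in B7hi with saline and at 0 in both B7low libraries, a pooled level at least 4.58-fold higher that did not pass the test (adjusted p = 0.21). With HDM it was at 9.38, 3.91 and 27.4 against 0, 18.2 and 1.26 CPM. Thymidylate synthase Tyms pointed in different directions by challenge, at 17.4 and 30.8 against 21.0 and 46.8 CPM with saline (−0.48 ± 0.65) and 12.5, 54.8 and 52.7 against 14.9, 24.7 and 12.6 CPM with HDM (1.14 ± 0.53). Neither passed. Rrm1, the constitutive reductase subunit, averaged 0.94 ± 0.42 (adjusted p = 0.19).

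Pcna, the sliding clamp of DNA polymerase, was the steadiest of the 45 genes. It stood at 117 and 196 CPM in B7hi and 170 and 134 CPM in B7low with saline, and at 149, 151 and 221 against 137, 174 and 157 CPM with HDM. All 4 groups overlapped, and the average log2 fold change was 0.10 ± 0.20 (adjusted p = 0.80). Without B7hi saline 2 or B7hi HDM 3 it was −0.11 or −0.02. Pcna also acts in DNA repair. Uhrf1, which carries DNA methylation through replication, was at 27.2 and 54.3 against 0 and 48.5 CPM with saline and at 22.5, 9.79 and 110 against 5.42, 43.6 and 5.69 CPM with HDM (1.06 ± 1.04, adjusted p = 0.59). E2f1, a transcription factor of the G1 to S transition, lay between 0 and 16.7 CPM in all libraries.

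**Figure D5:**
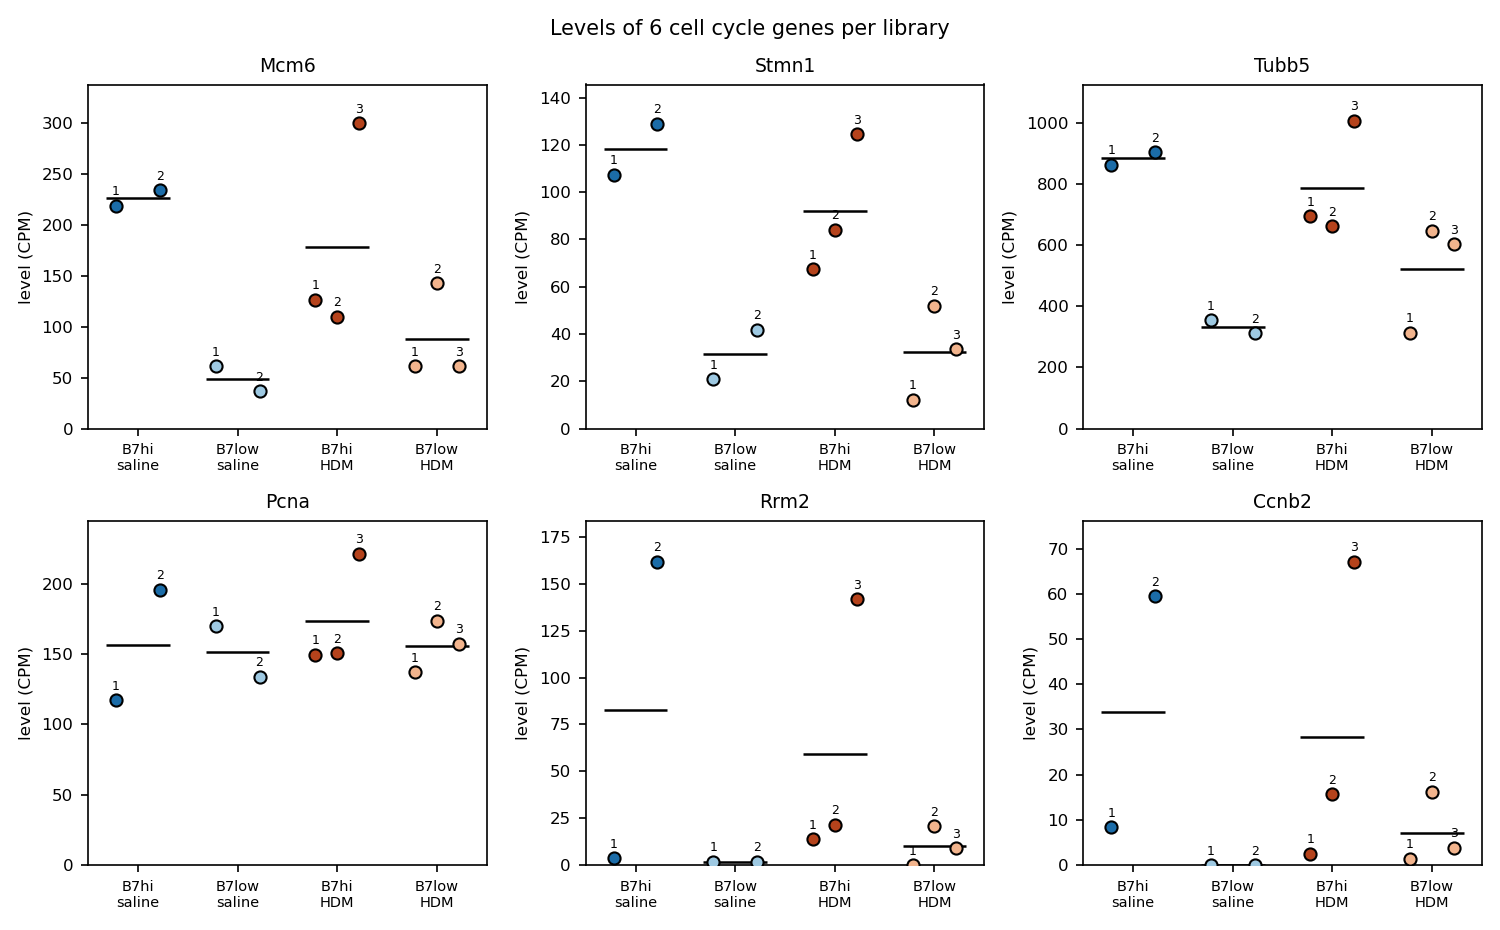
Level in CPM (vertical axis) of 6 genes in each library, with the replicate number beside each point and the group mean as a line. Mcm6, Stmn1 and Tubb5 are lower in both B7low saline libraries than in any B7hi library, Pcna overlaps in all 4 groups, and Rrm2 and Ccnb2 are high in B7hi saline 2 and B7hi HDM 3.

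Mki67 and Top2a, used widely as proliferation markers, did not pass. Mki67, which coats mitotic chromosomes, was at 46.1 and 83.5 CPM in B7hi and 15.7 and 36.8 CPM in B7low with saline, and at 25.002, 45.02 and 116 against 36.6, 41.0 and 46.8 CPM with HDM. The saline groups did not overlap and the HDM groups did (average 0.95 ± 0.40, adjusted p = 0.15). It passed without B7hi HDM 1 and with no count filter. Top2a, the topoisomerase that untangles sister chromatids and whose window held 4 CHR matches, was at 33.3 and 138 CPM against 15.7 and 11.7 CPM with saline. With HDM it was at 30.002, 41.1 and 202 CPM in B7hi and 2.71, 68.3 and 46.8 CPM in B7low. The average was 1.91 ± 0.94 (adjusted p = 0.26).

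The cyclins of mitosis reached their highest levels in B7hi saline 2 and B7hi HDM 3. Cyclin B2 (Ccnb2), an activator of Cdk1, was at 8.31 and 59.5 CPM in B7hi with saline and had no count in B7low, a pooled level at least 15.1-fold higher (adjusted p = 0.23). With HDM it was at 2.50, 15.7 and 67.1 CPM in B7hi and 1.36, 16.3 and 3.79 CPM in B7low. Cyclin B1 (Ccnb1) was at 9.07 and 63.2 against 10.5 and 10.03 CPM with saline, and at 6.25, 41.1 and 77.4 against 1.36, 38.4 and 25.3 CPM with HDM. For both cyclins the highest values were B7hi HDM 3 and B7hi saline 2, while B7hi saline 1 and B7hi HDM 1 lay within the range of the B7low libraries.

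Cdk1, the mitotic kinase itself, was at 5.29 and 45.4 against 1.75 and 11.7 CPM with saline and at 6.25, 5.87 and 62.3 against 4.07, 20.8 and 9.48 CPM with HDM (1.51 ± 0.92, adjusted p = 0.34). Aurkb, the kinase of the chromosomal passenger complex, was at 3.78 and 39.2 against 0 and 3.34 CPM with saline, and at 5.63, 7.83 and 30.1 against 1.36, 14.96 and 8.21 CPM with HDM (average adjusted p = 0.13). It had 80 counts against 2 with saline, a ratio of pooled levels of 14.5 (interval 3.87 to 121). Ccna2 and Plk1, the kinase of mitotic entry, averaged 1.76 and 1.97 and did not pass. The centrosomal kinase Aurka was at 0.756 and 8.35 CPM in B7hi with saline and had no count in B7low. Its pooled level was at least 2.05-fold higher, mostly through B7hi saline 2, and Aurka did not pass either. With HDM the 7 genes of this role had a median of 0.85.

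Grouped under the anaphase promoting complex, which ends mitosis by marking proteins for destruction, were Cdc20, Ube2c and Cdca3. The grouping does not make each of them a part of the complex. Cdca3 was at 5.29 and 21.9 CPM in B7hi with saline with no count in B7low, at least 5.90-fold higher when pooled (adjusted p = 0.12), and at 2.50, 3.91 and 33.6 against 2.71, 11.7 and 2.53 CPM with HDM. Cdc20, the activator of the complex, was at 7.56 and 26.1 against 6.99 and 0 CPM with saline and at 1.88, 7.83 and 15.8 against 2.71, 17.6 and 4.42 CPM with HDM. Its log2 fold change was 2.27 with saline and −0.01 with HDM. The interaction (the B7hi response to HDM less the B7low response) was −2.28 ± 1.59 (adjusted p = 0.73).

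Of 8 kinetochore, checkpoint and passenger genes, Cenpa came nearest to the threshold. It encodes the histone H3 variant that marks centromeres. With saline it was at 25.7 and 38.6 CPM in B7hi and 6.99 and 6.69 CPM in B7low (2.22 ± 0.69, adjusted p = 0.065), and with HDM at 16.9, 21.5 and 49.999 against 14.9, 33.2 and 27.8 CPM (0.22 ± 0.46). The saline groups stood apart and the HDM groups overlapped. Cenpe, a kinetochore motor, was at 6.05 and 23.5 against 0 and 3.34 CPM with saline and at 3.75, 15.7 and 19.9 against 1.36, 9.76 and 1.90 CPM with HDM (average adjusted p = 0.084). With saline it had 53 counts against 2, a ratio of 9.57 (interval 2.52 to 81.1).

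Birc5 (survivin), another passenger subunit, was at 7.56 and 44.4 against 8.74 and 16.7 CPM with saline and at 5.63, 23.5 and 54.1 against 6.78, 21.5 and 18.3 CPM with HDM (0.92 ± 0.64, adjusted p = 0.40). Bub1, Bub1b, Cdca8, Cenpf and Ndc80 averaged between 0.33 and 1.65. Bub1b had 59 counts in B7hi and 2 in B7low with saline, a ratio of pooled levels of 10.7 (interval 2.82 to 90.1), yet was at 0 in B7hi HDM 2. The outer kinetochore gene Ndc80 averaged 0.33 ± 0.69 and had a log2 fold change of −0.90 with HDM.

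Among 7 spindle genes, Prc1 and Tpx2 had the smallest p-values. Prc1, which bundles the microtubules of the central spindle, was at 25.7 and 44.9 CPM in B7hi with saline and 0 and 5.02 CPM in B7low. With HDM it was at 11.9, 5.87 and 40.4 against 5.42, 29.9 and 19.0 CPM. With saline it had 120 counts against 3, a ratio of 14.5 (interval 4.83 to 71.1, adjusted p = 0.067), and the HDM difference was 0.13 ± 0.68. Tpx2, the activator of Aurora A on the spindle, was at 9.82 and 29.8 against 0 and 6.69 CPM with saline and at 7.50, 9.79 and 42.5 against 2.71, 11.1 and 12.0 CPM with HDM (1.85 ± 0.71, adjusted p = 0.11). Kif11, the motor that separates spindle poles, averaged 1.74 and Nusap1 0.88. The cytokinesis motor Kif20a was at 0 and 14.1 CPM in B7hi with saline and had no count in B7low. Its pooled level was at least 3.25-fold higher through B7hi saline 2 alone. None of Kif11, Nusap1 and Kif20a passed. Kif23 and Hmmr were the 2 genes of 45 with a negative average, at −0.06 and −0.37.

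Of the tubulins and stathmin, Tubb5 and Stmn1 passed. Tubb5, a β-tubulin (chromosome 17, 35833921 to 35838306, minus strand), was at 863 and 903 CPM in B7hi and 355 and 311 CPM in B7low with saline, and at 695, 662 and 1007 against 313, 647 and 603 CPM with HDM. Every B7hi library lay above every B7low library. The log2 fold change was 1.41 ± 0.34 with saline (adjusted p = 0.020), 0.59 ± 0.27 with HDM (0.34) and 1.00 ± 0.22 on average (0.0059). Stmn1, which destabilizes microtubules (chromosome 4, 134468320 to 134473843, plus strand), was at 107 and 129 against 21.0 and 41.8 CPM with saline and at 67.5, 84.2 and 125 against 12.2, 52.0 and 33.5 CPM with HDM. Again every B7hi library exceeded every B7low library, with 1.91 ± 0.52 with saline (adjusted p = 0.042), 1.44 ± 0.40 with HDM (0.073) and 1.68 ± 0.33 on average (0.0037). On average over challenges, both kept their calls in 20 of 20 alternative analyses. With saline Tubb5 kept its call in 16 of 21, Mcm6 in 15 and Stmn1 in 11.

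Tuba1b, an α-tubulin, overlapped between the groups, at 11.3 and 25.1 against 14.0 and 6.69 CPM with saline and 12.5, 21.5 and 33.6 against 8.13, 20.8 and 8.85 CPM with HDM (0.82 ± 0.46, adjusted p = 0.29). Tubulin, stathmin and Pcna reads of 25 nt may match near-identical relatives or processed pseudogenes, so their levels are uncertain. Per kilobase of exon, Tubb5 had the highest mean level of the set (191 CPM per kb), followed by Pcna (66.9), Stmn1 (35.0), Mcm3 (30.1) and Mcm6 (28.9), and Cenpf the lowest (0.526).

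HDM was then compared with saline within each population, with the same libraries as above. In B7hi, 0 of 45 genes passed with edgeR, DESeq2 (which gave no adjusted p for 22 of them) or limma-voom, 0 had an unadjusted p under 0.05 in edgeR, and 0.00949% of genes tested were called. The median log2 fold change was 0.04, with 26 genes positive, and −0.03 with limma-voom. It was 1.05 without B7hi saline 2 and −0.74 without B7hi HDM 3. Levels did not overlap for Ndc80 alone, lower with HDM (9.82 and 20.4 against 3.75, 3.91 and 7.53 CPM), beside 10.4% of genes tested lower and 10.2% higher.

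In B7low, 0 of 45 passed with any of the 3 tools (DESeq2 gave no adjusted p for 3), again beside 0.00949% of genes tested, and 2 had an unadjusted p under 0.05 (Cenpa and Prc1). The replication genes had a median of 0.04 with 8 of 15 positive (7 of 15 with DESeq2 size factors), and the mitosis genes a median of 1.27 with 29 of 30 positive. Without B7low HDM 2 these medians were −0.37 and 0.56, and without B7low saline 2 they were 0.43 and 2.12. Ccnb2, Cdca3, Cenpa and Prc1 had measured HDM levels above both saline libraries, beside 13.2% of genes tested higher and 10.7% lower. Ccnb2 (1.36, 16.3 and 3.79 CPM with HDM) and Cdca3 (2.71, 11.7 and 2.53 CPM) had no count in either saline library. That allows up to 4.60 and 4.69 CPM there before the TMM scaling, and more after it, so these 2 genes are not shown to be apart. Cenpa had a log2 fold change of 1.90 ± 0.66 (adjusted p = 0.42).

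The interaction asks whether the HDM effect differed between populations, and 0 of 45 genes passed it with edgeR, DESeq2 (which gave no adjusted p for 16 of them) or limma-voom, as did 0% of all genes tested with edgeR. An unadjusted p under 0.05 was found for 3 genes (Prc1, Cenpa and Kif23), all with a negative interaction. Their mean levels were lower with HDM than with saline in B7hi and higher in B7low. From saline to HDM, Prc1 went from 35.3 to 19.4 CPM in B7hi and from 2.51 to 18.1 CPM in B7low. Cenpa went from 32.2 to 29.5 and from 6.84 to 25.3 CPM, and Kif23 from 81.5 to 55.9 and from 57.8 to 87.4 CPM. For mitosis genes the median was −1.29 with 1 of 30 positive, and for replication genes 0.11 with 9 of 15 positive, or −0.19 with library size alone. Prc1 had the lowest adjusted p (−3.62 ± 1.36, 0.50). The median over all 45 was −0.89, and 0.40 without B7hi saline 2. Without B7low HDM 2 it was −0.15 and without B7hi HDM 3 it was −1.73.

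Further genes of the pathway were read from lists by function. Of all genes tested, 5.80% were called higher on average and 11.9% in either direction. Of 48 further replication genes tested, 7 were higher in B7hi on average over challenges and 0 lower, with a median over the 48 of 0.57. The 4 with the smallest p were Lig1, Dut, Rfc5 and Rpa2. Lig1, the ligase that joins Okazaki fragments, averaged 48.6 and 15.8 CPM in B7hi and B7low (1.64 ± 0.36, adjusted p = 0.0063). Dut, which removes dUTP, differed by 1.86 ± 0.44 (0.012). Of 69 further mitosis genes tested, 6 were higher and 0 lower, with a median of 1.03, and the 4 with the smallest p were Ncaph, H2afz, Kif18a and Plk4. The condensin subunit Ncaph had no count in B7low with saline, and the histone variant gene H2afz averaged 1030 and 565 CPM (0.87 ± 0.19, adjusted p = 0.0066). With limma-voom 1 gene of each list passed. Without B7hi saline 2, 0 of the other replication genes and 2 of the other mitosis genes passed, and without B7hi HDM 3 there were 2 and 2. Without B7low saline 2 the counts were 4 and 2, and without B7low saline 1 there were 5 and 3. In saline alone Rpa2, Ncaph and Ckap5 passed, beside 2.91% of genes tested called higher, and with HDM 0 genes of both lists passed in edgeR, with 5 and 4 at an unadjusted p under 0.05. DESeq2 and limma-voom each gave 0 replication and 1 mitosis gene there.

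Upstream of replication, the G1 kinases Cdk6 and Cdk4 were higher in B7hi on average and cyclin D1 (Ccnd1) was lower, 3 of 9 genes tested, beside the 11.9% of all genes called. Cdk6 was at 149 and 131 CPM in B7hi and 38.5 and 38.5 CPM in B7low with saline (1.86 ± 0.44, adjusted p = 0.017), and at 76.9, 68.5 and 120 against 32.5, 83.9 and 85.3 CPM with HDM. Ccnd1 differed by −1.56 ± 0.38 on average (adjusted p = 0.013), and its call and that of Cdk6 on average were lost without B7hi saline 1 (adjusted p = 0.076 and 0.054). With saline Cdk6 missed the threshold without any 1 of the 4 saline libraries. Cdk4 (0.85 ± 0.25, adjusted p = 0.035) lost its call without each of 6 libraries. None of 6 CDK inhibitors and pocket proteins and none of 12 E2F, DREAM and MuvB regulators passed on average in edgeR, with 0 and 3 at an unadjusted p under 0.05. DESeq2 called 0 in both, and limma-voom 0 and 1. Of 16 p53 target and growth arrest genes Btg2 was higher and Gadd45a lower, and of 13 Myc and growth genes Npm1 and Nop58 were higher. These 2 of 16 and 2 of 13 stand beside the same 11.9%. Npm1, a nucleolar chaperone, differed by 0.93 ± 0.20 (adjusted p = 0.0067) and kept its call in 20 of 20 alternatives, while Nop58 lost its call without each of 5 libraries and Btg2 and Gadd45a without each of 7.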

How the data were processed

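Per the labels' protocols, sorted mast cells were lysed directly and libraries were made with SmartSeq2 and sequenced as paired reads of 25 nt. The authors deposited raw counts, whole numbers per gene symbol, for all 10 libraries. Build mm10, TopHat2 2.0.10, Cufflinks 2.2.1 and DESeq2 appear in the submitters' processing notes. The sources used here give no counting tool, gene annotation or strand setting. Groups were read from sample titles. Counts were fitted in R 4.3.3 with edgeR 4.0.16 (TMM, filterByExpr, robust quasi-likelihood, 1 mean per group, two-sided), leaving 10533 genes, among them all 45 members. P-values were adjusted over these genes by Benjamini and Hochberg, with a threshold of 0.05. Each SE is approximate: the absolute log2 fold change divided by the root of its F statistic. Where a group had no count, folds are bounds against 3 counts over that group, and such bounds and intervals cover counting error only. Described with values in each library were members past the threshold, the 2 with the smallest average p in each role, and a fixed set (Mki67, Top2a, Pcna, Mcm6, Tyms, Cdk1, Ccnb1, Birc5, Tubb5, Tuba1b, Stmn1); other genes of the pathway were named where they passed, at most 4 per list and comparison by p in detail. Members and lists were chosen with earlier results of these data known. Alternatives were other scalings, DESeq2 1.42.0, limma-voom (limma 3.58.1), other count filters, a replicate block and leaving out libraries. The fit was also run on simulated counts in which only better covered genes changed, and only in B7hi with saline. That run does not cover the rarest genes or the comparison of populations with HDM, and no result here rests on it.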

Additional observations from a re-analysis of the deposited data

How the results depend on the processing

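The count of 3 cell cycle genes called with saline was 5 with library size alone, 5 with DESeq2, 1 with limma-voom, 11 with no count filter and 0 without both B7low saline 2 and B7hi HDM 2, and 0 to 4 with 1 library left out. The saline median was then 0.77 to 2.47. With HDM the count of 0 was 1 with DESeq2, 1 with limma-voom and 3 with no count filter, and 0 to 1 with 1 library left out. The average count of 3 was 5 with library size alone, 7 with DESeq2 and 16 with no count filter, and 2 to 10 with 1 library left out. Library size alone raised the median of all genes tested from 0.03 to 0.30 with saline and that of the 45 genes from 1.83 to 2.11, and raised the share of calls that were higher from 306 of 689 to 655 of 965. Over all genes, the 689 calls with saline were 1078 with no count filter, 370 with only the groups compared, and 226, 312 and 444 without B7hi saline 1, B7hi saline 2 and B7low saline 1. The 299 with HDM were 507 with DESeq2, 548 with no count filter, and 147, 156 and 137 without B7hi HDM 3, B7hi HDM 2 and B7low HDM 1. The average count of 1251 was 659 and 790 without B7hi saline 1 and B7hi saline 2. HDM against saline gave 1 gene in each population, but 54 and 89 in B7hi and 19 and 112 in B7low with DESeq2 and with no count filter, and the interaction 0, but 41 and 143. No count filter called 1 cell cycle gene, Prc1, in the interaction. The HDM median in B7hi ranged from −0.74 to 1.05 and the interaction median from −1.73 to 0.40 with 1 library left out. The average Pcna difference of 0.10 turned negative when B7hi saline 2 (−0.11) or B7hi HDM 3 (−0.02) was left out, over a range of −0.11 to 0.26. The summed B7low saline level of 1194 CPM was 1097 CPM with library size alone and 819 CPM without tubulins and stathmin. The labels do not state whether a replicate number marks a shared animal. Correlations of same-numbered deviations were 0.04 with saline and 0.02, −0.11 and −0.05 with HDM. With 2 or 3 libraries per group these values cannot decide whether libraries were paired. With the replicate number as a block, the calls were 6 with saline, 1 with HDM and 11 on average, and with the number within challenge as a block 5, 1 and 9. The cause of these shifts was not tested. Depth limits the rarest transcripts, since a count of 0 allows 1.74 to 5.70 CPM before the TMM scaling, depending on the library.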
